A study of Homo sapiens with 9 samples.

Results

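The response common to 2 inhibitors of protein arginine methylation was described in A549 cells, a human lung adenocarcinoma epithelial line. Each inhibitor group was set against the same DMSO libraries, the mean of the 2 group effects was taken for each gene, and the genes whose fitted effects had the same sign in both inhibitors were kept. Of 18292 genes tested, 10678 (58.4%) met that condition, 5347 of them higher and 5331 lower than DMSO. Since both comparisons use the same DMSO libraries, this count of shared signs is a description.

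The 9 libraries were 3 of cells given DMSO, the vehicle, 3 of cells given GSK591, an inhibitor of PRMT5, and 3 of cells given MS023, an inhibitor of the type I PRMTs. Both compounds were used at 1 µM for 7 days, and the labels name no genetic change in any group. Cells came from 1 line, and the labels do not say whether the 3 libraries of a group are separate cultures, so the p-values describe only how these libraries vary. Plates of both treated groups were seeded with 0.4 × 1e5 cells and those of DMSO with 0.2 × 1e5 (the exponent as the labels' figure was read), so that in every comparison with DMSO the inhibitors and the seeding density cannot be told apart. The comparison of MS023 with GSK591 is between groups seeded alike.

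Protein arginine methyltransferases (PRMTs) place methyl groups on arginines of histones, RNA-binding proteins and splicing factors. The type I enzymes make asymmetric dimethylarginine, PRMT5 makes most of the symmetric form, and both leave a monomethyl intermediate. PRMT5 is best known for methylating the Sm proteins of the spliceosome, and the type I enzymes for methylating the glycine- and arginine-rich stretches of hnRNP proteins.

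Library totals ran from 31398075 to 51244525 counts. The epithelial markers EPCAM, CDH1, KRT8, KRT18, KRT7, KRT19 and CLDN4 were all counted and summed to between 5168 and 8160 CPM (counts scaled to library size) over the 9 libraries. Of 11 leukocyte markers 1, MS4A1, was at 0 in every library, PTPRC had 2 counts in each group, and the list summed to 26.7 to 27.9 CPM in DMSO, 35.2 to 37.5 in GSK591 and 22.7 to 23.6 in MS023. The 10 fibroblast and endothelial markers in the table summed to 16 to 18.8 CPM in DMSO, 12.3 to 14.5 in GSK591 and 29.3 to 33.1 in MS023, with DCN at 1 count in all 3 DMSO libraries together and at 0 elsewhere. One library stood apart, GSK591 3, with 927.5 CPM on the 2 mitochondrial ribosomal RNA genes against 0.401 to 20.1 in the others. Without it, 3772 genes rose and 3702 fell by the call given next, and without it and DMSO 1, the library at 20.1 CPM, 3723 and 3721.

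The mean effect of the inhibitors passed the test in 7714 genes with shared signs. Of these, 3653 were higher, 20.0% of all genes tested, and 4061 were lower, 22.2% of them (edgeR's quasi-likelihood test, Benjamini-Hochberg adjusted p below 0.05). "Rose" and "fell" are used below for these genes only. With libraries scaled by total counts in place of the trimmed mean of M-values, the split was 4415 higher and 3184 lower. The effects were mostly small: the median log2 change of the genes that rose was 0.54 in GSK591 and 0.40 in MS023, and that of the genes that fell was -0.35 and -0.22. Changes of at least 1 on the log2 scale in both inhibitors were found in 292 genes that rose and 53 that fell, and changes of at least 2 in 20 and 3. Passing on the mean does not mean passing in each inhibitor, which 1906 of the higher and 2256 of the lower genes did (10.4% and 12.3% of all genes tested). GSK591 alone passed in 1085 higher and 1211 lower genes, MS023 alone in 635 and 578, and neither in 27 and 16.

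All 6 treated libraries lay above the 3 DMSO libraries in 2127 of the 3653 genes that rose and below them in 2525 of the 4061 that fell. Over all genes tested, 11.9% lay above in this way and 14.0% below.

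**Figure D1:**
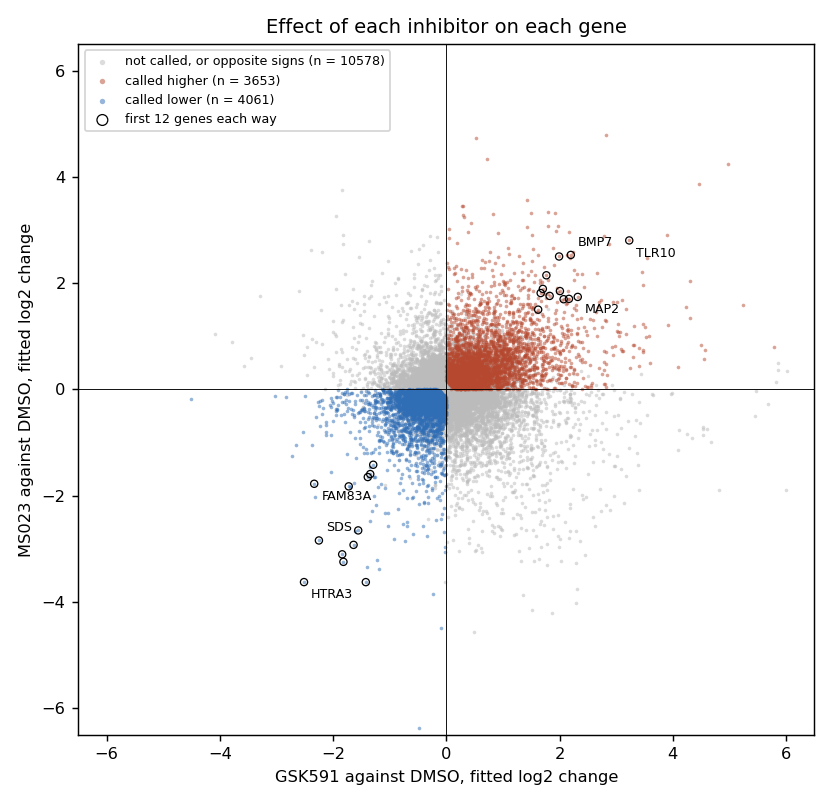
Fitted log2 change of each of 18292 genes in GSK591 against DMSO (x axis) and in MS023 against DMSO (y axis); red points rose, blue points fell, grey points did not pass or had opposite signs, and circles mark the first 12 genes each way by the smaller of the 2 changes. The same DMSO libraries enter both axes, and 3 genes lie outside the axes, which end at 6.5; TLR10 and BMP7 are farthest into the upper right among the circled genes, HTRA3 into the lower left.

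The genes that rose most in both inhibitors, among those with a mean of at least 1 CPM and no overlap between treated and DMSO libraries, were led by TLR10 and BMP7. TLR10, a member of the Toll-like receptor family (chr4:38773860-38784611, hg19 as for all gene positions here), stood at 0.719, 0.238 and 0.324 CPM in DMSO, 3.32, 4.19 and 3.71 in GSK591, and 2.87, 2.71 and 2.80 in MS023. All 6 treated libraries lay above all 3 of DMSO, as the ranking required, and the 2 treated groups did not overlap. TLR10 rose by 3.23 ± 0.24 (SE) on the log2 scale in GSK591 and 2.80 ± 0.25 in MS023 (edgeR, adjusted p of the mean 5.45e-08, n = 3 libraries a group). BMP7, a ligand of the bone morphogenetic protein receptors (chr20:55743804-55841685), stood at 1.09, 1.08 and 1.15 CPM in DMSO, 5.28, 5.29 and 4.75 in GSK591, and 5.60, 6.61 and 7.12 in MS023. The rise of BMP7 was 2.20 ± 0.13 and 2.53 ± 0.13 (adjusted p 1.1e-09), with every MS023 library above every GSK591 library in CPM. In the deposited FPKM the 2 treated groups of BMP7 overlapped, with MS023 1 at 1.39 and GSK591 1 at 1.56.

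MAP2, which binds microtubules of neuronal dendrites (chr2:210288782-210598842), had the highest CPM of the first 12, a measure that also grows with transcript length. It stood at 12, 11 and 12.6 CPM in DMSO, 56.4, 59.9 and 61.1 in GSK591, and 38.0, 39.8 and 41.1 in MS023. The 3 groups of MAP2 values did not overlap. MAP2 rose by 2.32 ± 0.06 and 1.74 ± 0.06 on the log2 scale (edgeR, adjusted p 1.99e-12), and was lower in MS023 than in GSK591 by 0.58 (95% interval of the difference -0.69 to -0.47, adjusted p 1.17e-07). ACHE, the acetylcholinesterase of synapses, stood at 0.645 ± 0.116 CPM (mean ± SD, n = 3) in DMSO, 2.92 ± 0.0645 in GSK591 and 2.12 ± 0.171 in MS023. NFASC, the adhesion molecule neurofascin of axon initial segments, rose by 2.0 and 1.85 on the log2 scale. For NFASC the difference between the inhibitors was -0.15 with a 95% interval of -0.46 to 0.15. The other genes in the first 12 that rose were CBFA2T3, a transcriptional corepressor, SARDH, the mitochondrial sarcosine dehydrogenase, ANO9, an anoctamin, VIPR1, a receptor of vasoactive intestinal peptide, ARHGDIB, the pseudogene BCRP3, and WIPF3, a WASP-interacting protein. Their changes ran from 1.62 to 2.07 in GSK591 and from 1.5 to 2.5 in MS023, all from DMSO means of 0.31 to 1.09 CPM. BCRP3 belongs to a repeated family of sequences on chromosome 22, so its counts are uncertain.

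Under the same conditions, the genes that fell most in both inhibitors were led by HTRA3, a secreted serine protease (chr4:8271492-8308838). HTRA3 stood at 21.6, 20.0 and 19.3 CPM in DMSO, 3.54, 3.22 and 3.84 in GSK591, and 1.85, 1.33 and 1.67 in MS023. The 3 groups did not overlap, and HTRA3 was lowest in MS023. It fell by 2.51 ± 0.09 on the log2 scale in GSK591 and by 3.63 ± 0.10 in MS023 (edgeR, adjusted p of the mean 1.99e-12). SERPINA3, the plasma protease inhibitor alpha-1-antichymotrypsin (chr14:95078714-95090392), had 5.38, 5.22 and 5.58 CPM in DMSO, 1.58, 1.48 and 1.46 in GSK591, and 0.800, 0.546 and 0.494 in MS023. LBP, which binds bacterial lipopolysaccharide in plasma and is, like SERPINA3, an acute-phase protein of liver, fell by 1.82 ± 0.13 and 3.25 ± 0.15. NTRK3, the neurotrophin-3 receptor (chr15:88418230-88799999), had 146, 146 and 138 CPM in DMSO, 51.2, 50.3 and 44.6 in GSK591, and 25.2, 21.0 and 22 in MS023. NTRK3 fell by 1.56 ± 0.06 and 2.65 ± 0.07 (adjusted p 1.99e-12), again with no overlap between any of the 3 groups in the counts. In the deposited FPKM the library MS023 1 was at 53.1 against 5.19 and 5.99 in the other 2 of MS023 and 28.3 to 32.0 in DMSO, and the NTRK3 call was lost there in limma.

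IGFBP3, which carries insulin-like growth factors (chr7:45951949-45961473), had 398, 362 and 337 CPM in DMSO, 146, 147 and 154 in GSK591, and 146, 134 and 131 in MS023. All 6 treated libraries lay below DMSO, as the ranking required. The lowest of GSK591 (146.4 CPM) was just above the highest of MS023 (145.8 CPM). IGFBP3 fell by 1.29 ± 0.06 and 1.42 ± 0.06 on the log2 scale, and the difference between the inhibitors, -0.13, had an adjusted p of 0.0651 in edgeR's test. SNAI1, a transcription factor of epithelial-mesenchymal transition, fell by 1.35 ± 0.10 and 1.59 ± 0.10, from 15.4 ± 1.20 CPM (SD, n = 3) to 6.12 ± 0.580 and 5.11 ± 0.791. CA9, the hypoxia-inducible carbonic anhydrase IX, varied within DMSO, at 9.44, 5.38 and 4.62 CPM, and stood at 2.16 to 2.62 in GSK591 and 1.95 to 2.14 in MS023. The others of the first 12 that fell were SDS, the liver serine dehydratase, FAM83A, the netrin receptor UNC5D, CHRDL2, a chordin-like BMP antagonist, and GGT5, a gamma-glutamyl transferase. These 5 fell by 1.42 to 2.33 in GSK591 and by 1.78 to 3.63 in MS023.

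**Figure D2:**
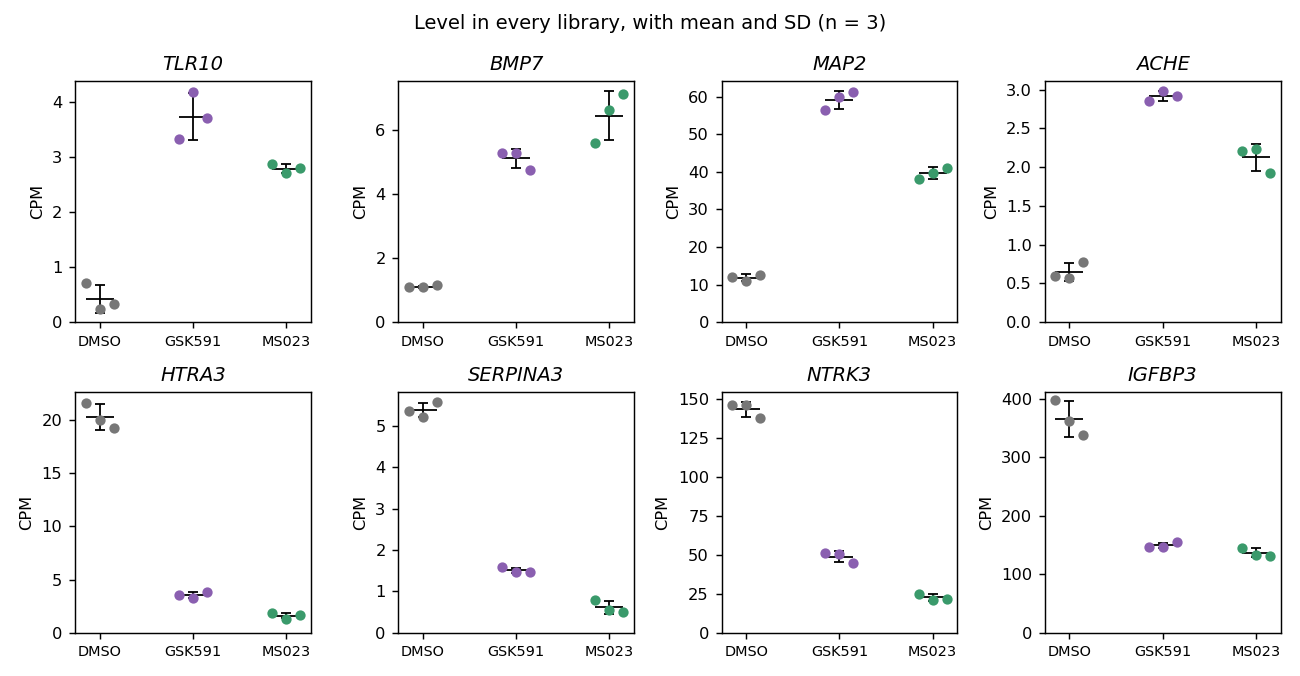
CPM (y axis, starting at 0) in each of the 9 libraries for 4 genes that rose and 4 that fell; points are libraries, the long bar is the group mean and the whiskers are 1 SD (n = 3). All 8 genes were chosen from those with the 6 treated libraries on one side of the 3 DMSO libraries, so that separation was fixed by the choice. NTRK3 is an example, at 138 to 146 CPM in DMSO and 21.0 to 51.2 in the treated groups.

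Moving the same way did not mean moving by the same amount. MS023 and GSK591 were called different in 5097 of the shared genes, 2297 of those that rose (62.9%) and 2800 of those that fell (68.9%), beside 65.4% of all genes tested. The larger change was in GSK591 for 1475 of the genes that rose and 1947 of those that fell, and in MS023 for 822 and 853. Among genes at least 1 log2 unit from DMSO in both inhibitors that met the other conditions for naming, the differences were greatest for GREM1, RNU1-1, DSCAML1 and CSF2RA among the genes that rose, and for GGT5, NPTX1, LBP and CHRDL2 among those that fell. GREM1, gremlin 1, a secreted BMP antagonist, had 3.03, 2.86 and 3.61 CPM in DMSO, 7.39, 9.03 and 8.87 in GSK591, and 28.6, 41.8 and 42.1 in MS023. GREM1 was higher in MS023 than in GSK591 by 2.14 on the log2 scale (95% interval 1.86 to 2.42, edgeR, adjusted p 2.14e-09). CSF2RA, the alpha chain of the GM-CSF receptor, had the opposite order, with 2.05 ± 0.0930 CPM (SD, n = 3) in DMSO, 11.4 ± 0.988 in GSK591 and 4.19 ± 0.455 in MS023. NPTX1, a neuronal pentraxin, had 70.9, 69.5 and 67.5 CPM in DMSO, 31.1, 27.7 and 29.8 in GSK591, and 8.59, 6.92 and 6.93 in MS023. DSCAML1, a neuronal adhesion molecule, rose by 1.09 in GSK591 and 2.66 in MS023. In the deposited FPKM, DSCAML1 in GSK591 (0.744, 0.144 and 0.333) overlapped DMSO (0.0933, 0.110 and 0.272), so its rise there is uncertain. RNU1-1 is one of several near-identical copies of the U1 small nuclear RNA gene, and its counts are uncertain. In the deposited FPKM RNU1-1 was at 0 in all 9 libraries. CHRDL2 there was at 0.529, 0.583 and 0.815 in GSK591 and 0.836, 0.451 and 0.220 in MS023. These values overlap, so the difference of CHRDL2 between the inhibitors is uncertain.

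Gene lists were read by how many measured members rose and fell, beside 20.0% and 22.2% over all genes, and by their median log2 change, which over all genes was -0.01 for the mean of both inhibitors. The members of the list of G2/M and mitosis genes, which encode cyclins, kinases, kinesins and spindle proteins of dividing cells, fell together. Of 46 measured, 41 fell and none rose, and 36 had all treated libraries below all DMSO libraries. The list's median change was -0.95 in GSK591 and -0.24 in MS023, and each of the 41 members was called different between the inhibitors. Against DMSO alone, all 46 were lower in GSK591 at the threshold, where 32.4% of all genes tested were, and in MS023 34 were lower, beside 25.9% of all genes, and 1 was higher.

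The promoters of 4 of these genes are shown because many members carry 2 motifs known from genes of this phase, the CCAAT box, bound by NF-Y, and TTTGAA, the core of the cell cycle genes homology region (CHR). The 200 bases before each RefSeq start site are printed 5′ to 3′ on the + strand (GRCh38.p14): HMMR at chr5:163460432-163460631, CCNB2 at chr15:59104946-59105145, PLK1 at chr16:23678689-23678888 and KIF20A at chr5:138178912-138179111. HMMR and KIF20A were the first 2 of the list by the ranking; CCNB2 and PLK1 were chosen after their values were seen. Capitals mark CCAAT or TTTGAA on either strand (ATTGG or TTCAAA on the other), and overlapping matches were counted separately.
HMMR: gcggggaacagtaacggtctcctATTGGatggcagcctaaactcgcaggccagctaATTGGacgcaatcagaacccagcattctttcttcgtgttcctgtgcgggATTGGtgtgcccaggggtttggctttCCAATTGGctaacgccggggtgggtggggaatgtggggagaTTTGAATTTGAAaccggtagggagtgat
CCNB2: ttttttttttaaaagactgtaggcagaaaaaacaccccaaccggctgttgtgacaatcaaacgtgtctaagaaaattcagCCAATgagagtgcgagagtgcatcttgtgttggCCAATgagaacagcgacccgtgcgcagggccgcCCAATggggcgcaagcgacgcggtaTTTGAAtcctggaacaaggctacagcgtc
PLK1: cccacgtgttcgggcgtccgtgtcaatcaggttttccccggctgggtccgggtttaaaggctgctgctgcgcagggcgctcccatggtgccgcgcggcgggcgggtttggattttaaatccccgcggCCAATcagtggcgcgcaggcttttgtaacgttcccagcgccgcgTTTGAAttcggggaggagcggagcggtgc
KIF20A: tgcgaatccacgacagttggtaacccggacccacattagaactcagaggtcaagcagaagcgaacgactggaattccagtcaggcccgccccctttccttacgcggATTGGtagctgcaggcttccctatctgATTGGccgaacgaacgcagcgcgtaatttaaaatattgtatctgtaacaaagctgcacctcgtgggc

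These windows hold 5 CCAAT and 2 TTTGAA in HMMR, 3 and 1 in CCNB2, 1 and 1 in PLK1, and 2 and 0 in KIF20A. Within 250 bases before to 50 after the start, 30 of the 39 list members with a promoter in the table (76.9%) held CCAAT on either strand, against 35.7% of all 27305 promoters of that length. TTTGAA was in 27 of the 39 (69.2%), against 15.4% of all. Other motifs searched on both strands in the same windows were the E2F sites TTTGGCGC, TTTCGCGC and TTTCCCGC (any of them in 3 of 39, 7.69%, against 2.79%), TATAAA (3 of 39, 7.69%, against 12%), the AP-1 site TGACTCA (0 of 39, against 4.92%) and the AP-2 site GCCNNNGGC (8 of 39, 20.5%, against 23.0%). Among the 11071 of 15917 tested genes with a proper symbol that had a promoter in the table, the shares were 36.2% for CCAAT, 10.1% for TTTGAA, 4.21% for the E2F sites, 6.19% for TATAAA, 3.33% for AP-1 and 31.9% for AP-2. The share of TATAAA in the list thus lay below that of all promoters and above that of tested genes. A match is a description of letters and not of binding.

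HMMR, the hyaluronan-mediated motility receptor, which also acts at the mitotic spindle, had 118, 137 and 125 CPM in DMSO, 61.2, 60.9 and 63.5 in GSK591, and 73.8, 69.3 and 68 in MS023. It was the member nearest to equal movement, with a fall of 1.03 ± 0.05 in GSK591 and 0.85 ± 0.05 in MS023 (edgeR, adjusted p of the mean 4.05e-10). KIF20A, a kinesin of cytokinesis, fell by 1.30 ± 0.04 and 0.52 ± 0.04, from 90.5 ± 0.307 CPM (SD, n = 3) to 36.7 ± 1.43 and 63.0 ± 0.171. CCNB2, cyclin B2, fell by 1.23 in GSK591 and 0.22 in MS023, with 111 to 123 CPM in DMSO, 48.0 to 51.3 in GSK591 and 97.3 to 103 in MS023. PLK1, the polo-like kinase of mitotic entry, shows how the mean can pass on 1 inhibitor: it had 121 to 135 CPM in DMSO, 76.2 to 85.3 in GSK591 and 120 to 130 in MS023. Its log2 change was -0.63 in GSK591 and -0.03 in MS023, where its values overlapped those of DMSO.

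The replication-dependent histone genes, which supply histones during S phase, had 47 of 59 measured members that fell and none that rose. The median change was -1.68 in GSK591 and -0.20 in MS023, and all 47 differed between the inhibitors. Called on their own in each inhibitor, 28 members fell in both. HIST1H1D, a linker histone, had 392, 467 and 454 CPM in DMSO, 101, 87.0 and 90.5 in GSK591, and 312, 250 and 254 in MS023. The members are near-identical in part, and the split of reads between them is uncertain. HIST1H1T, the testis form, was the other member named by the ranking and was measured at under 1 CPM.

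DNA replication and G1/S genes were divided: 21 of 49 fell, 1 rose and 27 had opposite signs in the 2 inhibitors, with a median change of -0.70 in GSK591 and 0.02 in MS023. RPA3, a subunit of the single-strand binding protein RPA, fell by 1.19 ± 0.10 and 0.56 ± 0.09, and PRIM1, the primase catalytic subunit, by 0.68 ± 0.05 and 0.47 ± 0.05. CCNE1, cyclin E1, was the 1 member that rose, from 21.7 ± 0.865 CPM (SD, n = 3) in DMSO to 32.9 ± 1.15 in GSK591 and 28.5 ± 0.923 in MS023. For homologous recombination and Fanconi repair, 24 of 38 genes fell and none rose (medians -0.64 and -0.09). EME1, a structure-specific endonuclease subunit, fell by 0.76 ± 0.07 and 0.44 ± 0.07, and FANCB, of the Fanconi core complex, by 1.10 ± 0.08 and 0.40 ± 0.08.

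**Figure D3:**
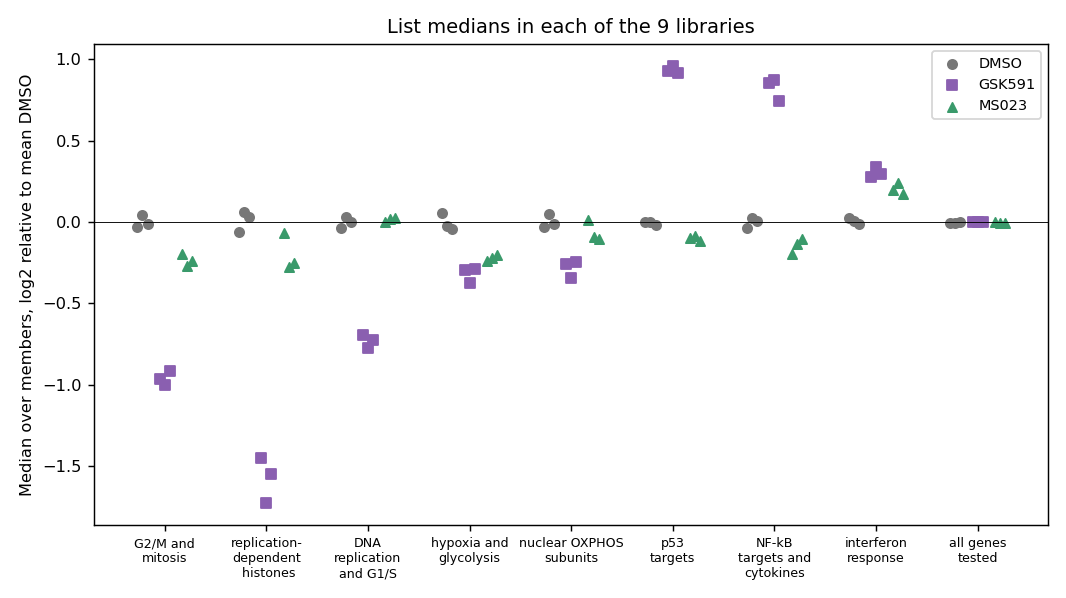
Median log2 level of the members of 8 gene lists and of all genes tested, relative to the mean of the 3 DMSO libraries (y axis), in each library; points are libraries, shaped by group. The G2/M and histone medians lie below DMSO in all 6 treated libraries, at -0.92 to -1.0 and -1.45 to -1.72 in GSK591 and -0.20 to -0.27 and -0.07 to -0.28 in MS023, while p53 targets lie at 0.92 to 0.96 in GSK591 and -0.09 to -0.12 in MS023.

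Lists of the ribosome and of oxidative phosphorylation came next. Of 78 measured genes of the cytosolic ribosomal proteins, 56 fell and 2 rose, with small medians of -0.24 in GSK591 and -0.14 in MS023. Without DMSO 2 the count that fell was 37, and the count that rose was 1 without DMSO 2, DMSO 3, MS023 2 or MS023 3. RPS3A, of the small subunit, fell by 0.29 ± 0.07 and 0.38 ± 0.07. RPL36A rose by 0.58 and 0.31 in the counts, but in the deposited FPKM, analysed with limma, its mean change was -0.46, so its direction is uncertain. RPL3L, the muscle paralog of RPL3, led the list by size of fall at under 1 CPM, and its call was lost without DMSO 2, at a mean change of -0.88. Processed copies of these genes are many, and counts can be shared with them.

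Of 44 nuclear genes for subunits of oxidative phosphorylation, 28 fell and none rose, with medians of -0.27 and -0.04. That count was 16 without DMSO 2 and 15 under total-count scaling. ATP5O and NDUFA5, of ATP synthase and complex I, fell by 0.64 ± 0.09 and 0.35 ± 0.05 in GSK591 and by 0.28 ± 0.09 and 0.28 ± 0.05 in MS023. Among 41 genes of ribosome biogenesis, 16 fell, WDR12 among them, and 4 rose, but under total-count scaling 10 fell and 8 rose.

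The hypoxia and glycolysis list had 21 of 36 members that fell and 3 that rose, with medians of -0.33 in GSK591 and -0.21 in MS023 that were closer to each other than those of the cell cycle lists. CA9 was first by the ranking. SLC2A3, the neuronal-type glucose transporter GLUT3, had 74.6, 65.7 and 63.8 CPM in DMSO, 28.6, 26.3 and 26.7 in GSK591, and 45.9, 44.7 and 47.2 in MS023. Moving against the list were ADM, the vasodilator peptide adrenomedullin, which rose by 1.14 ± 0.03 and 0.59 ± 0.03, and PFKFB3, which sets fructose 2,6-bisphosphate, which rose by 0.44 ± 0.04 and 0.63 ± 0.04. In the list of ATF4 and unfolded protein response genes, 17 of 36 fell and 4 rose (medians -0.31 and -0.06), and the count that fell was 10 under total-count scaling. DDIT4, a stress-induced inhibitor of mTORC1, fell from 275 ± 8.82 CPM (SD, n = 3) to 173 ± 4.11 in GSK591 and 158 ± 3.09 in MS023, and the endoplasmic reticulum chaperone HSP90B1 fell by 0.45 ± 0.04 and 0.40 ± 0.04. CHAC1, which degrades glutathione, and SESN2 rose.

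Lists of RNA-processing proteins, a class that PRMTs are known to methylate, held members that fell by small amounts and others with opposite signs. Over all genes tested, 7614 of 18292 had opposite signs. Of 37 genes of snRNP, Sm and LSm proteins, 19 fell, none rose and 14 had opposite signs (medians -0.37 and -0.08), with LSM5 at -0.57 in GSK591 and -0.20 in MS023 and GEMIN8, of the SMN complex, at -0.19 and -0.21, a call lost under total-count scaling and without DMSO 2 or DMSO 3 (mean changes -0.15, -0.18 and -0.18). Of 37 genes of hnRNP and RGG-motif proteins, 18 fell, 3 rose and 14 had opposite signs. HNRNPK fell by 0.37 ± 0.03 and 0.16 ± 0.03, while the cold-inducible CIRBP rose by 0.28 ± 0.04 and 0.32 ± 0.04 and FXR2 by 0.25 ± 0.04 and 0.32 ± 0.04. In the list of SR proteins and CLK kinases, 4 of 24 rose and 5 fell, near the 20.0% and 22.2% of all genes tested. Under total-count scaling 8 rose and 0 fell, and the 5 that fell were 2 without DMSO 2 and 3 without GSK591 1, GSK591 3 or MS023 2. CCNL2, cyclin L2, rose by 1.24 ± 0.06 in GSK591 and 0.42 ± 0.06 in MS023. Of 15 genes of PRMT enzymes and partners, 7 fell and none rose, but only 3 fell without DMSO 2, and 4 without DMSO 1 or without GSK591 1. PRMT3, a type I enzyme of the ribosome, had 73.3, 73.3 and 68.6 CPM in DMSO, 61.5, 60.2 and 62.4 in GSK591, and 51.5, 51.5 and 55.2 in MS023. The gene labelled PRMT10 fell by 0.25 ± 0.09 and 0.29 ± 0.09, a call that was lost without DMSO 2, at a mean change of -0.12. The gene of the GSK591 target, PRMT5, did not pass on the mean, with changes of 0.02 and -0.16.

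Of 41 measured interferon-response genes, 18 rose and 4 fell, with medians of 0.31 in GSK591 and 0.21 in MS023. The 4 that fell were 2 without DMSO 1, GSK591 3, MS023 2 or MS023 3. The antiviral GTPase MX1 had 0.844, 1.19 and 0.843 CPM in DMSO, 1.86, 1.81 and 2.51 in GSK591, and 1.70, 2.03 and 1.76 in MS023. MX1 rose by 1.10 ± 0.19 and 0.91 ± 0.20, a difference of -0.19 with a 95% interval of -0.56 to 0.19. CMPK2, a mitochondrial nucleotide kinase, rose by 1.30 ± 0.24 and 0.81 ± 0.25, and OAS3, which makes 2-5A in response to double-stranded RNA, fell from 88.5 ± 1.41 CPM (SD, n = 3) to 74.0 ± 1.81 and 65.3 ± 2.06. Of 18 genes of MHC class I presentation, 7 rose and 3 fell, the peptide trimmer ERAP2 by 1.24 ± 0.13 and 0.70 ± 0.13 and the immunoproteasome subunit PSMB9 by 0.76 ± 0.12 and 0.52 ± 0.12. The summed leukocyte markers were above DMSO in GSK591 and below it in MS023, and their part in these lists was not tested.

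Of 30 xenobiotic enzymes and transporters, 11 rose and 5 fell, or 3 without DMSO 1. CYP1A1, the classic target of the aryl hydrocarbon receptor, rose from 0.164 ± 0.0356 CPM (SD, n = 3) to 0.845 ± 0.308 and 0.37 ± 0.0814. At so low a level in DMSO, CYP1A1 may have passed the filter only through the treated groups, and its call would then be bound to follow. AHRR, the repressor of that receptor, rose by 0.89 ± 0.10 and 0.73 ± 0.10. NNMT, which methylates nicotinamide, fell by 0.40 ± 0.05 in GSK591 and by 2.12 ± 0.06 in MS023. Of 34 NRF2 targets, 9 rose, 3 fell and 21 had opposite signs. The 3 that fell were 1 without GSK591 1 or GSK591 3 and 5 without MS023 1. The efflux pump ABCC2 rose by 0.72 ± 0.04 and 0.55 ± 0.04, and thioredoxin reductase TXNRD1 by 0.64 ± 0.02 and 0.52 ± 0.02. In the list of neuronal cytoskeleton and vesicle genes, 10 of 24 rose and 3 fell. MAP2 and the synaptic vesicle protein SYN1 rose, and SNAP25, of the vesicle fusion machinery, fell by 0.16 ± 0.05 in GSK591 and 2.04 ± 0.06 in MS023.

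In several lists most members had opposite signs in the 2 inhibitors, as 7614 of the 18292 genes tested did, and lay outside the shared response. All 35 genes of the p53 target list were higher in GSK591 at the threshold, while in MS023 6 were higher and 15 lower. Over all genes tested 30.1% were higher in GSK591, and 25.1% were higher and 25.9% lower in MS023. Of the 35, 24 had opposite signs, 11 rose and none fell. The list's members were chosen as targets of p53, a tumour suppressor that responds to DNA damage. GDF15, a stress-induced cytokine, had 33.1, 29.3 and 27.7 CPM in DMSO, 82.5, 76.0 and 79.2 in GSK591, and 68.9, 63.2 and 64.3 in MS023. GDF15 rose by 1.40 ± 0.06 and 1.13 ± 0.06 (edgeR, adjusted p of the mean 2.23e-10). SESN2, a sestrin of the stress response, rose by 1.39 ± 0.06 and 0.32 ± 0.07. CDKN1A, which encodes the CDK inhibitor p21, was outside the shared response, with log2 changes of 2.18 and -0.08; it is given after its values were seen.

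Of 30 NF-kB targets and cytokines, 18 had opposite signs, 9 rose and 1 fell, or 2 without DMSO 1. BIRC3, an inhibitor of apoptosis, had 33.5, 37.0 and 36.8 CPM in DMSO, 116, 138 and 134 in GSK591, and 51.4, 52.3 and 53.9 in MS023, with no overlap between the groups. Opposite signs were also found in 26 of 42 collagen and matrix genes, 21 of 28 mesenchymal genes, 19 of 26 airway secretory genes and 19 of 26 cholesterol genes. Within these lists the shared members included MMP7, matrilysin, with 9.91, 9.04 and 9.64 CPM in DMSO, 25.5, 27.6 and 28.3 in GSK591, and 23.9, 27.1 and 25.7 in MS023. MMP7 rose by 1.51 ± 0.06 and 1.42 ± 0.06, and the difference of -0.09 had a 95% interval of -0.21 to 0.04. HMGCS1, of cholesterol synthesis, rose by 0.62 ± 0.04 and 0.64 ± 0.04, a difference of 0.02 with an interval of -0.07 to 0.11. MUC5AC, a secreted airway mucin, fell by 2.25 ± 0.12 in GSK591 and by 0.31 ± 0.11 in MS023, and P4HA1, a collagen prolyl hydroxylase, by 1.02 ± 0.05 and 0.57 ± 0.05. The collagen and matrix list had medians of 0.43 in GSK591 and -0.31 in MS023. The fibroblast and endothelial marker sums given above were lower in GSK591 and higher in MS023 than in DMSO. COL1A1, itself a collagen gene, had the highest level of these markers, at 11.7 CPM in DMSO, 7.18 in GSK591 and 25.1 in MS023. Other markers did not all follow the sum, as for LUM, at 0.998, 1.81 and 0.679 CPM. The part of these markers in the list was not tested.

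Signalling lists held members that rose and members that fell, in shares mostly near the 20.0% and 22.2% of all genes tested. Their counts describe members and are not a result about these pathways. In the TGF-beta and BMP list, 8 of 32 rose and 6 fell. Besides the ligand BMP7 and the antagonist GREM1, which rose, the BMP target ID1, an inhibitor of basic helix-loop-helix factors, fell from 292, 329 and 315 CPM in DMSO to 186, 171 and 189 in GSK591 and 177, 182 and 187 in MS023. ID1 fell by 0.78 ± 0.05 in each, with a 95% interval of the difference of -0.11 to 0.10. ID2 fell by 0.55 ± 0.06 and 1.17 ± 0.06. In the YAP/TAZ list, 8 of 29 rose and 7 fell, or 4 without DMSO 1 and GSK591 3. CTGF, a matricellular target of YAP, rose by 0.48 ± 0.07 and 1.26 ± 0.07, and the kinase gene LATS2 by 0.80 ± 0.05 and 0.37 ± 0.05, while NT5E, the ectonucleotidase CD73, fell by 0.55 ± 0.05 and 1.18 ± 0.05. Of 25 Notch genes 7 rose and 4 fell, or 2 without DMSO 1, with the ligand DLL1 going from 0.277 ± 0.0306 CPM (SD, n = 3) to 0.962 ± 0.0797 and 1.15 ± 0.096.

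Shares in the next lists were again mostly near or below 20.0% and 22.2%, apart from more BCL2 family members that rose. Among 43 semaphorins, ephrins and guidance receptors, 10 rose and 6 fell, the netrin receptor UNC5B by 1.17 ± 0.14 and 0.89 ± 0.14 upward and the ephrin EFNA1 by 0.93 ± 0.06 and 0.76 ± 0.06 downward. Of 24 AP-1 and immediate-early genes 6 rose and 5 fell, with FOS going from 20.1 CPM in DMSO to 12.1 in GSK591 and 12.7 in MS023. Of 28 Wnt genes 4 rose and 5 fell (2 fell without DMSO 1, and 3 without GSK591 1 or GSK591 3), the Wnt deacylase NOTUM by 1.35 ± 0.31 and 2.39 ± 0.27 upward. HBEGF, a ligand of the EGF receptor, was 1 of 3 that rose among 14 EGFR family genes, none of which fell. Of 15 BCL2 family genes 7 rose and 4 fell: the pro-apoptotic BAX by 0.83 ± 0.04 and 0.15 ± 0.04 upward, and the survival gene BCL2 by 0.36 ± 0.12 and 1.15 ± 0.13 downward. The 7 that rose were 3 when called in each inhibitor alone, 4 in limma on filtered FPKM and 5 without DMSO 2 or DMSO 3. In the deposited FPKM, BCL2 in GSK591 (0.672, 0.767 and 0.802) overlapped DMSO (0.753, 0.719 and 0.773), so its fall there is uncertain. Its FPKM in MS023 were 0.402, 0.683 and 0.595.

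**Figure D4:**
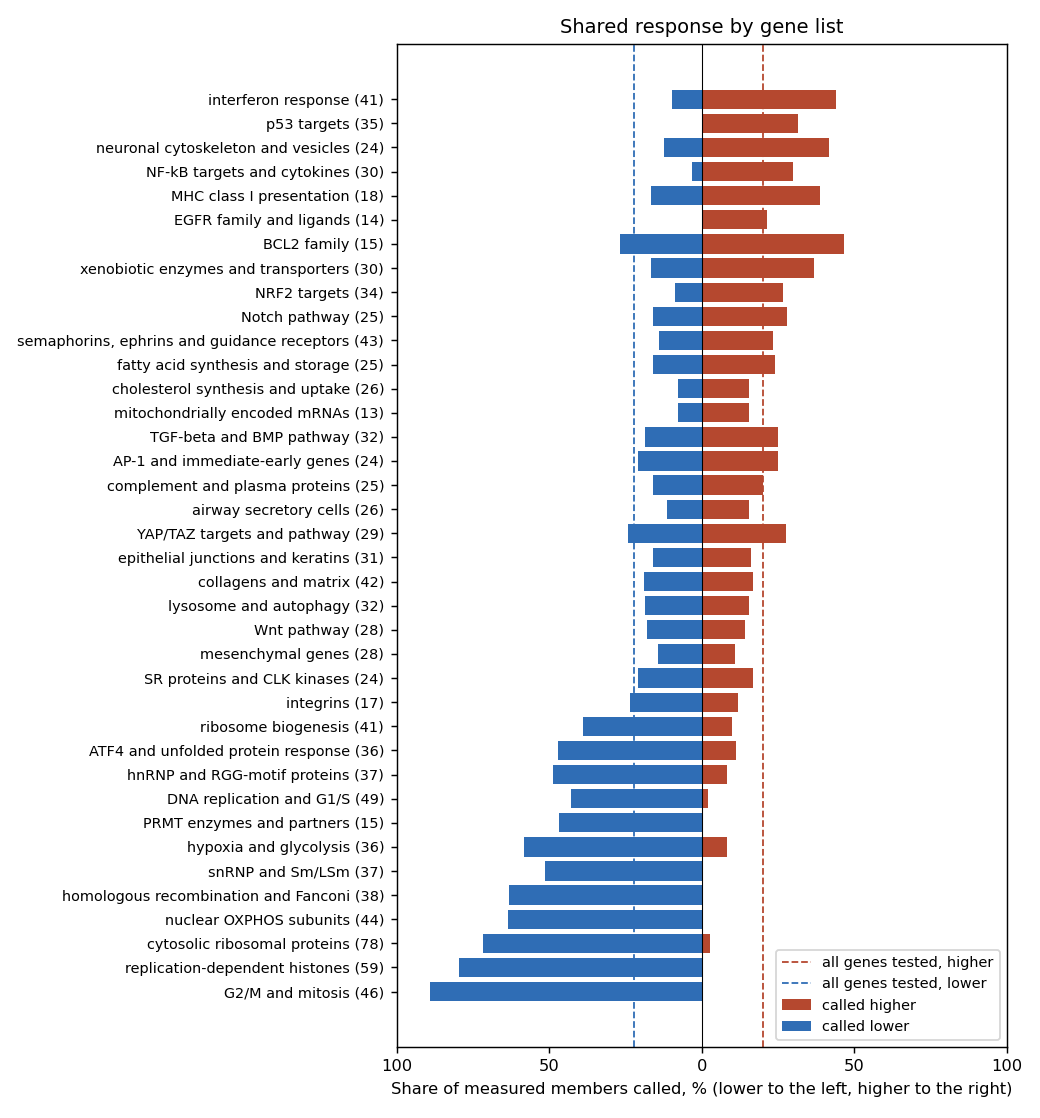
Share of the measured members of each gene list (number in brackets) that rose (red, to the right) or fell (blue, to the left), in percent, with dashed lines at the shares over all genes tested, 20.0% and 22.2%. The longest blue bars are those of the G2/M, histone and cytosolic ribosomal protein lists, and the interferon, BCL2 family and neuronal lists have the longest red ones.

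A stricter count takes members called in each inhibitor alone with the same sign, which over all genes tested were 10.4% higher and 12.3% lower. By that count 34 G2/M genes, 13 DNA replication genes, 14 homologous recombination genes, 34 ribosomal protein genes and 13 genes of oxidative phosphorylation fell. So did 10 snRNP genes, 8 hnRNP and RGG-motif genes, 9 ATF4 and unfolded protein response genes and 16 hypoxia and glycolysis genes. The members higher by that count were 12 interferon-response genes, 9 xenobiotic genes, 6 p53 targets, 5 NF-kB targets and 5 neuronal genes. Under total-count scaling of the mean effect, the members that fell were 4 in the PRMT list, 4 in the YAP/TAZ list, 2 each in the Wnt, Notch, mesenchymal and interferon lists and 1 in the NRF2 list, and 7 cholesterol genes rose in place of 4.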

How the data were processed

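RNA was measured in 9 A549 libraries made, per the labels, from total RNA freed of ribosomal RNA with random hexamers and paired-end reads. The authors deposited a table of read counts per gene for all libraries, whole numbers without normalisation, and 9 tables of FPKM in the layout of Cufflinks gene tables, per the file headers. The submitters' processing notes name cutadapt, STAR, featureCounts, DESeq2 and hg19; their versions, the annotation and the strand setting were not stated there, so reads of overlapping or antisense genes may be misassigned. Gene coordinates were read from the FPKM tables (hg19), with starts converted to count from 1.

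The model was edgeR 4.0.16 under R 4.3.3: filterByExpr (minimum count 10, minimum total 15) kept 18292 genes, libraries were scaled by the trimmed mean of M-values (TMM), and a quasi-likelihood model of the 3 groups, all 9 libraries sharing 1 estimate of the spread, gave the mean of the inhibitor effects against DMSO, each effect alone and their difference. CPM are scaled by TMM, except that marker and ribosomal RNA sums use total counts. P-values were Benjamini-Hochberg adjusted over all genes tested at 0.05. The fit was tested on simulated counts. A gene with few counts that passed the filter only through the groups where it is high was bound to differ.

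Members and gene lists were chosen with earlier results of these data known. Genes were named by rule: the first 12 each way with a mean of at least 1 CPM, a call in each inhibitor and no overlap of treated and DMSO libraries, ranked by the smaller of the 2 absolute changes; the first 2 each way of each list by that ranking, without the CPM and overlap conditions; and the 4 each way with the largest difference between inhibitors among genes changed by at least 1 log2 unit in both. Promoters are RefSeq's (GRCh38.p14), matched by symbol or Ensembl identifier on the same chromosome. Fewer than 80% of the tested genes, of the p53 targets and of the 50 first genes each way had one, so their shares cover only part of each set. Of the promoters present, CCAAT was in 50% for p53 targets, 35.3% for the 50 first higher and 51.6% for the 50 first lower. TTTGAA was in 3.85%, 17.6% and 19.4%. Alternatives were RLE and total-count scaling, no filter or 1 CPM in 3 libraries, DESeq2 1.42.0, a threshold of 0.01, glmTreat against a log2 change of 0.5, the treated libraries as 1 group, each inhibitor called alone, a replicate block, limma 3.58.1 on log2(FPKM + 1) or log2(FPKM + 0.1) with a filter of FPKM 1 in 3 libraries or none, and leaving out each library. Leaving out DMSO 1 and GSK591 3 together was chosen after seeing the data.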

Additional observations from a re-analysis of the deposited data

How the results depend on the processing

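The numbers of shared genes that rose (3653), fell (4061) and differed between the inhibitors (5097) stayed within 1.5 times under RLE scaling, total-count scaling, both filters, DESeq2, a threshold of 0.01 and leaving out any 1 library (3282 to 3776, 3380 to 4179 and 4476 to 5130). Tested against a log2 change of 0.5 with glmTreat, they were 717, 420 and, for the difference, 1150. With the 6 treated libraries as 1 group, whose spread then includes the difference between inhibitors, 1316 rose and 1346 fell, among them 14 G2/M genes and 1 histone gene. Called in each inhibitor alone, 1906 rose and 2256 fell. In limma on FPKM with a pseudocount of 1, 1913 rose and 3259 differed; with 0.1, 1908 and 3249; with 1 and no filter, 2257 and 3102, the cause was not tested. The share of calls that were higher was 47.4%, 58.1% under total-count scaling, which moved the median change of all genes from -0.01 to 0.04, 63.1% with glmTreat and 36.3% in filtered FPKM. Of 140 named genes over 23 settings, 3019 of 3146 values kept direction and call and 124 lost the call. RPL36A reversed, at -0.46 in the 3 FPKM settings; the cause was not tested. List counts moved by over 1.5 times in 345 of 1932 cases. Deviations from group means of same-numbered libraries of different groups had correlations over genes of both signs, -0.43 to 0.26. With 3 libraries a group, these cannot decide whether the numbers pair them. With a replicate block 3548 rose, 3956 fell and 4862 differed.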

Other observations

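Small RNA genes belong to no list above. Of 59 small nuclear RNA genes tested, 27 rose on the mean of the inhibitors with the same sign in both and 1 fell, beside 20.0% and 22.2% of all genes tested. Their median level was 0.358 CPM and their median change on the mean of the inhibitors was 0.58 on the log2 scale. At such levels some may have passed the filter only through the groups where they were high, and those were bound to differ. Of 120 small nucleolar RNA genes 16 rose and 5 fell, of 30 microRNA genes 5 rose and 1 fell, and of 8 small Cajal body RNA genes 3 rose and none fell. Many of these genes are near-identical copies, and the libraries were not selected for RNA of this size, so the counts are uncertain. Of 1880 long non-coding RNA genes 265 rose (14.1%) and 239 fell (12.7%), and of 14202 protein-coding genes 3007 rose (21.2%) and 3615 fell (25.5%). The difference between the classes was not tested, and their median levels were 0.618 and 24.4 CPM.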
